A study of Xenopus tropicalis with 24 samples.

Results

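The genes described here encode enzymes, readers and remodelling motors of chromatin and variants of histone H2A in the frog Xenopus tropicalis. They were chosen by a name pattern that was set with earlier results of these data known. The transcript table holds 5944 gene labels, of which 5462 name 1 gene, and 70 of these begin with hdac, sirt, brd, kdm, ezh, eed, suz12, cbx, setd, ehmt, suv, prmt, smarc, chd, ing, phf or h2af. The same pattern admits kat (acetyltransferase) and dnmt (DNA methyltransferase) names, but no label of 1 gene bears one. Grouped by family, the 70 are 9 deacetylases, 5 bromodomain proteins, 6 histone demethylases, 3 subunits of Polycomb repressive complex 2 (PRC2), 7 chromobox readers, 7 lysine methyltransferases, 5 arginine methyltransferases, 8 SMARC and 3 CHD remodellers, 13 PHD finger or ING proteins and 4 H2A variants. A few are chromatin proteins by family name only, such as phf5a, a splicing factor, and sirt4, a mitochondrial sirtuin.

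Nucleosomes are modified on their histone tails by writers, cleared by erasers and bound by readers, while remodellers move or exchange them with energy from ATP. PRC2 methylates lysine 27 of histone H3, and Polycomb chromobox proteins bind that mark, whereas chromobox proteins of the HP1 type bind methylated lysine 9. An early frog embryo lives on proteins and mRNA loaded into the egg until its own genome is switched on at the midblastula transition, and many chromatin marks are laid down around that time.

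Embryos were whole, wild type and made by in vitro fertilisation. Nodal-inhibited stage 9 embryos were kept in SB431542, a small molecule that blocks type I receptors of the Nodal and activin ligands, from the 4-cell stage, and the other embryos were untreated at stages 8, 9 and 10.5, which run from the blastula to the start of gastrulation. Polyadenylated transcripts were counted by 3' RNA-seq from 400 ng of mRNA in 1 library for each of these 4 groups. Chromatin immunoprecipitation from pools of 250 embryos gave peak lists for H3K4me3, H3K4me1, H3K27ac, H3K27me3 and Smad2/3, the transcription factors downstream of Nodal, at the 3 untreated stages, and for H3K27ac and H3K4me1 under inhibition. Every group holds 1 library, so no difference below has a replicate check, no test was made, and each interval (95%, exact) on a level or fold covers counting error only. Intervals on shares of genes treat the genes as independent draws, although they are a fixed list. They cover neither peak calling nor variation between libraries, and test no difference from all genes. In whole embryos, fewer cells of a type and less RNA per cell cannot be told apart.

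Tags in regions that name a gene came to 4656275 in the inhibited library and to 4973283, 6659554 and 8030203 at stages 8, 9 and 10.5. Levels are given as CPM, the tags of a gene scaled to these totals, and a gene was compared where the higher library of a pair had at least 10 CPM. "Rose" and "fell" mean at least 2-fold on log2(CPM + 1), which understates the change of low genes. As markers, 8 mesendoderm and organizer genes (of 13 listed) summed to 63.6 CPM under inhibition with 3 at 0, and to 113.8, 105.1 and 1049.3 CPM at stages 8, 9 and 10.5 with 5, 2 and 0 of them at 0. The 4 ectoderm markers found (of 5) summed to 27.1 CPM under inhibition and to 0.6, 2.1 and 1047.0 CPM over the stages, while 3 maternal transcripts (of 6) summed to 298.5 CPM under inhibition and to 212.5, 189.7 and 181.3 CPM over the stages. None of 4 markers of later cell types had a label. Inhibited embryos thus differed from untreated stage 9 embryos in the ectoderm and maternal sums as well, and the part of this in the results below was not tested.

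The 70 genes together held 1.535% of named tags in inhibited embryos and 1.519%, 1.422% and 1.697% at stages 8, 9 and 10.5. Their median level was 80.64 CPM under inhibition and 104.16, 78.46 and 82.94 CPM at the 3 stages, above the median of all labels of 1 gene in each library (42.09 CPM under inhibition and 55.9, 39.72 and 47.82 CPM by stage). At least 1 comparison could be made for 67 of them. The 3 that stayed below 10 CPM in every library were cbx6, a Polycomb chromobox gene, phf3, and sirt1, a nuclear sirtuin.

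**Figure D1:**
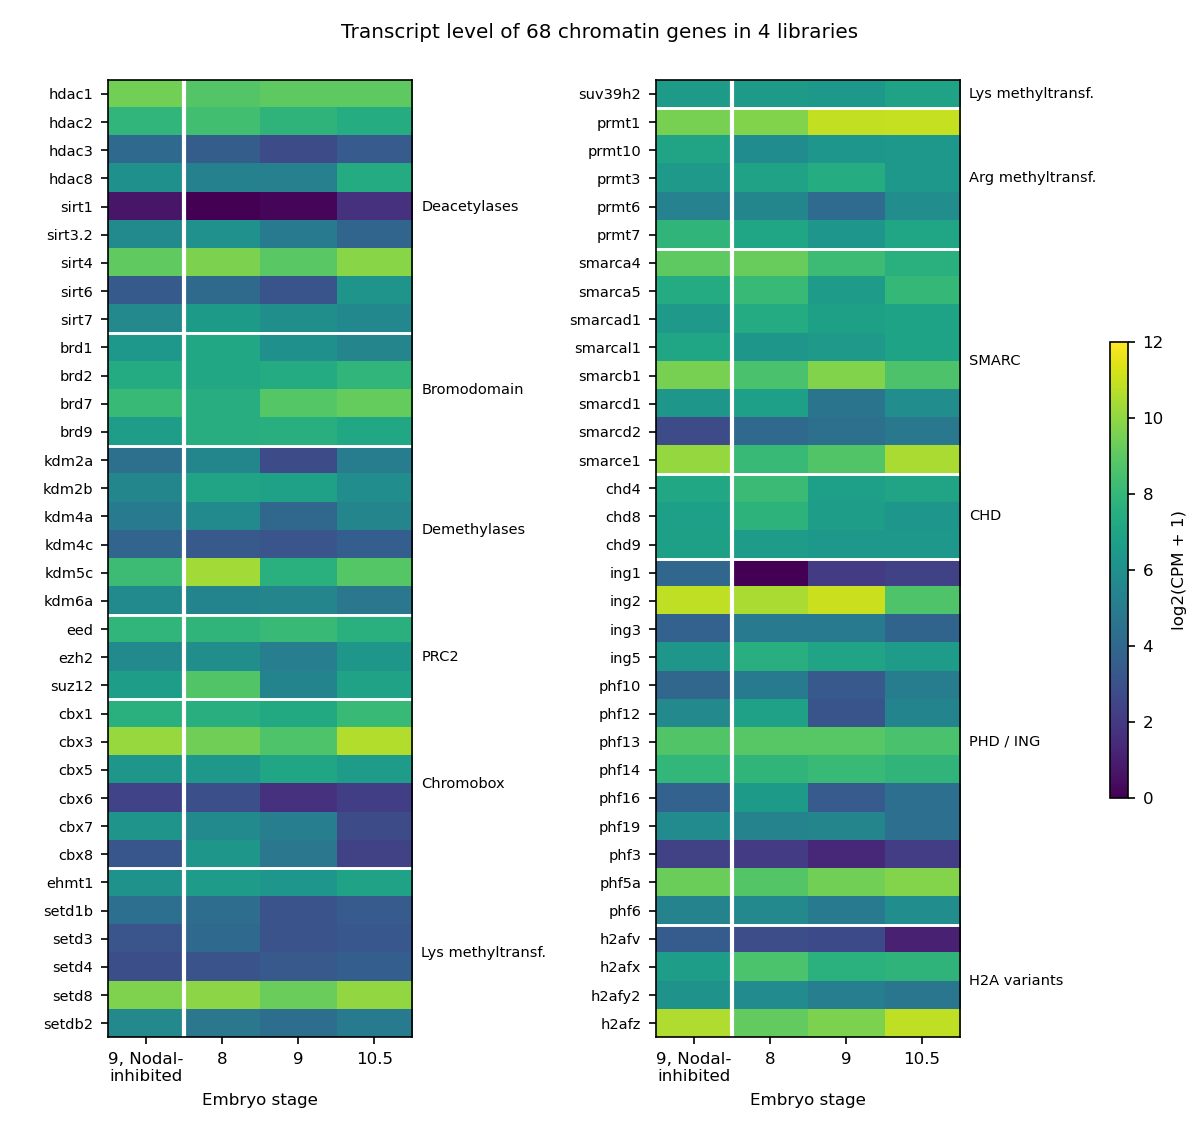
Heat map of log2(CPM + 1) for 68 of the genes (rows, grouped by family) in the Nodal-inhibited stage 9 library (left column of each panel) and the untreated libraries of stages 8, 9 and 10.5. cbx7 and cbx8 darken at stage 10.5 (5.98 and 4.11 CPM), while cbx3, smarce1 and h2afz brighten (1570, 1440 and 1860 CPM).

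Over the whole span, stage 10.5 against stage 8, 65 of the genes could be compared. 7 rose (10.8%) and 17 fell (26.2%), against 14.6% and 24.6% of the 4808 genes of all kinds compared, and their median log2 ratio was -0.21, as it was for all genes. TMM scaling moved the median of all genes by 0.24. With it, 8 rose and 12 fell of 64 compared, against 19.0% and 18.3% of all genes. Counting only the largest region of each label gave 15 rises of 63, with no share of all genes under that rule to set beside it. By the main and TMM scalings the shares and the median of the whole set lay near those of all genes, so what follows is given by family and gene. The 7 that rose were hdac8, sirt6, brd7, cbx3, prmt1, smarce1 and h2afz, and all 7 did so under each of the 4 scalings tried. Of the 17 that fell, 12 did so under each scaling, among them brd1, cbx7, cbx8, chd8, ing2, kdm5c, phf12, phf16, sirt3.2, smarca4 and suz12. All 19 of these calls also held for tags on the gene's own strand alone. Counts of calls that held under each scaling, here and below, have no share of all genes beside them.

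**Figure D2:**
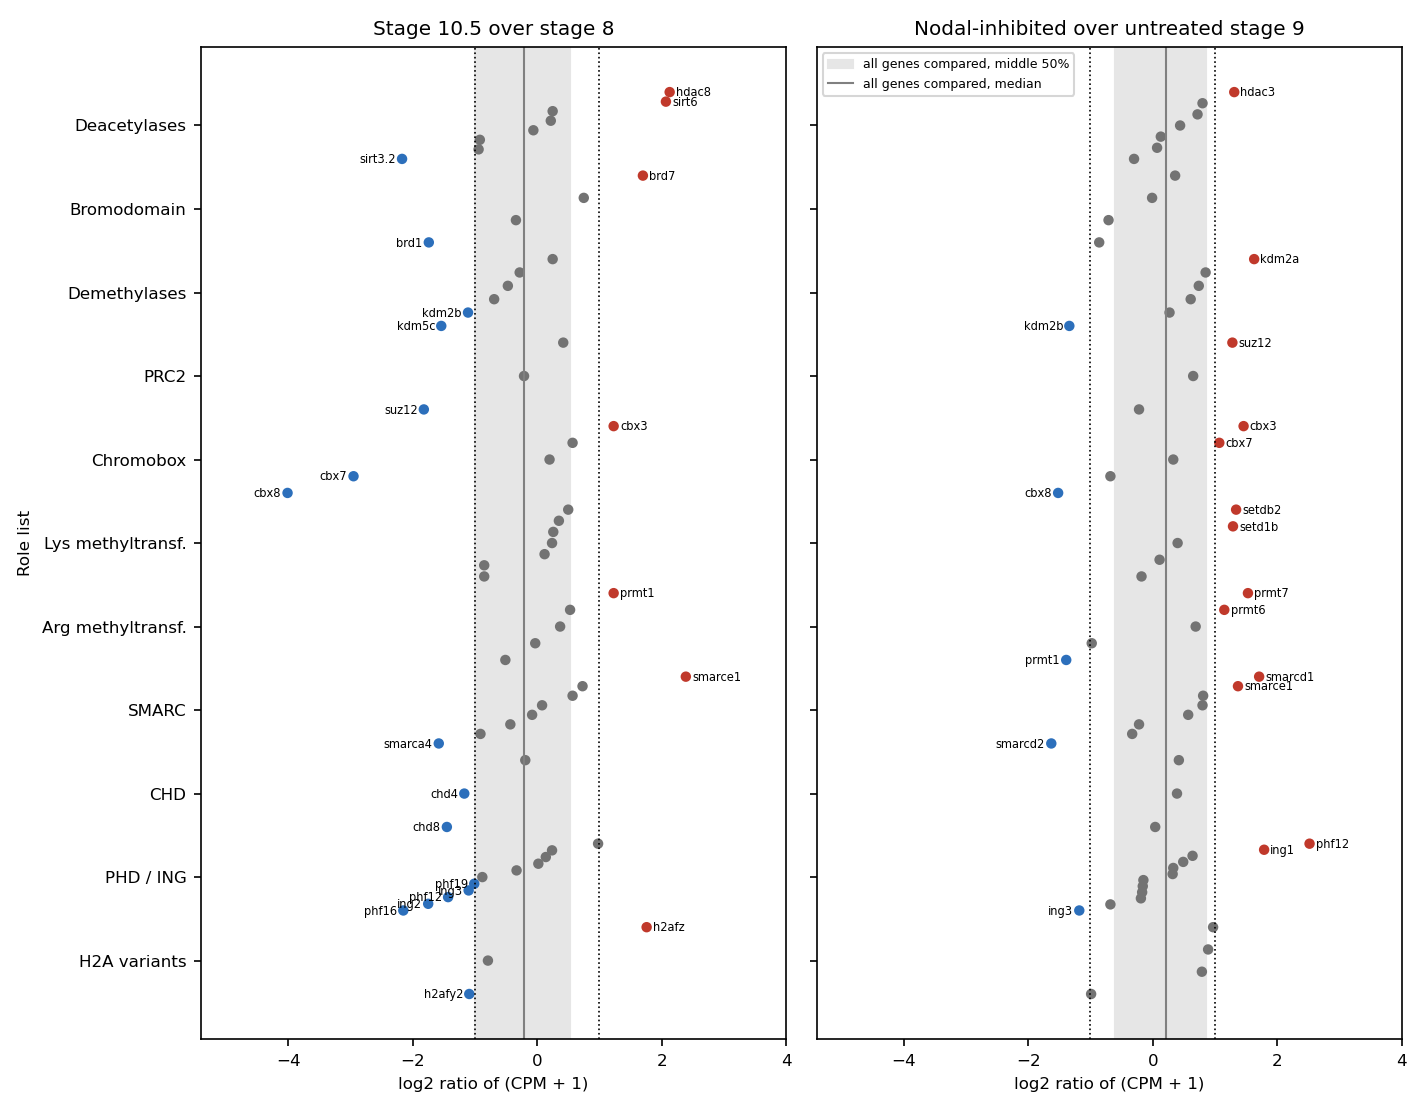
Log2 ratio of CPM + 1 by family for stage 10.5 over stage 8 (left) and Nodal-inhibited over untreated stage 9 (right), 1 point for each of the same 68 genes where compared, red at least 2-fold higher, blue at least 2-fold lower, with dotted lines at 2-fold and the middle 50% of all genes shaded. The Polycomb chromobox genes cbx8 and cbx7 lie farthest left at stage 10.5 (-4.01 and -2.95).

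By stage 10.5 the summed transcripts of the Polycomb chromobox genes cbx6, cbx7 and cbx8 were lower and those of HP1 readers higher than at stage 8. The sum of cbx6, cbx7 and cbx8 came to 85.7 CPM under inhibition and to 141.0, 62.5 and 13.7 CPM at stages 8, 9 and 10.5. The 3 HP1 genes summed to 1421.5 CPM under inhibition and to 938.4, 698.4 and 1944.7 CPM at the stages. cbx8 had 81.4, 26.0 and 4.11 CPM at stages 8, 9 and 10.5 and fell 19.8-fold by stage 10.5 against stage 8 (13.9 to 29.2), with a 2-fold drop at each step. cbx7 had 52.9, 34.2 and 5.98 CPM and fell 8.85-fold (6.48 to 12.3). The levels of cbx8 and cbx7 at stage 10.5 rest on 33 and 48 tags. cbx6 stayed low throughout, at 6.64, 2.25 and 3.61 CPM.

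Among the HP1 genes, cbx3 (HP1 gamma) had 670, 416 and 1570 CPM at stages 8, 9 and 10.5 and was 2.35-fold higher at stage 10.5 than at stage 8 (2.26 to 2.44). cbx1 (HP1 beta) had 186, 153 and 277 CPM, and cbx5 (HP1 alpha) had 82.6, 130 and 95.4 CPM, each within 2-fold over the span. cbx3 thus made up most of the increase of the HP1 sum. For cbx1, 67.6% of tags lay on the gene's strand, against a median of 94.1% over the 66 genes whose strand could be read.

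Under Nodal inhibition cbx8 and cbx7 parted. cbx8 had 8.38 CPM in inhibited embryos, against 26.0 CPM in untreated ones, 3.10-fold lower (2.18 to 4.51). cbx7 went the other way, with 73.0 CPM in inhibited embryos and 34.2 CPM in untreated ones, 2.13-fold higher (1.80 to 2.53), although this call did not hold under 2 of the other scalings. cbx3 had 1150 CPM in inhibited and 416 CPM in untreated embryos, 2.76-fold higher (2.64 to 2.89), with all 5 of its regions higher.

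**Figure D3:**
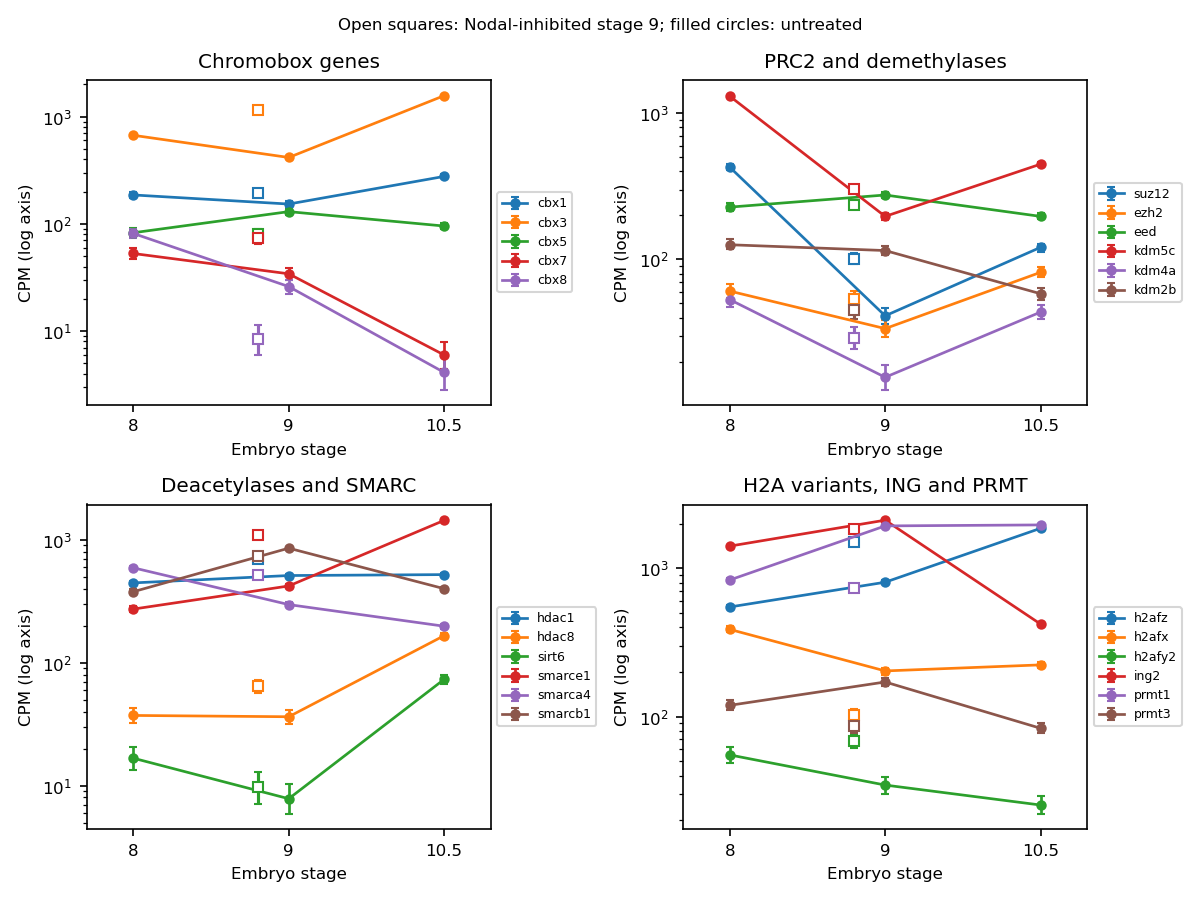
CPM on a log axis against stage for 23 genes in 4 panels, with untreated libraries as filled circles joined by lines, the Nodal-inhibited stage 9 library as open squares set left of untreated stage 9, and 95% Poisson counting intervals. cbx7 and cbx8 drop to 5.98 and 4.11 CPM at stage 10.5, and suz12, kdm5c and kdm4a are lowest at untreated stage 9.

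The 3 PRC2 subunits did not share a course. suz12, a core subunit the complex needs to assemble, had 428, 41.1 and 121 CPM at stages 8, 9 and 10.5. Against stage 8 it fell 10.4-fold at stage 9 (9.18 to 11.9), in all 10 regions with enough tags, and at stage 10.5 it was 2.93-fold higher than at stage 9 (2.56 to 3.36), in 8 of 10. ezh2, the methyltransferase, had 60.7, 33.6 and 81.6 CPM, and eed, which binds the methylated tail, had 228, 276 and 197 CPM. ezh2 was 2.43-fold higher at stage 10.5 than at stage 9 (2.08 to 2.84) but not under each scaling, and eed stayed within 2-fold throughout. In inhibited embryos suz12 had 101 CPM, against 41.1 CPM in untreated ones, 2.46-fold higher (2.12 to 2.87) and higher in all 6 regions, whereas ezh2 had 53.3 CPM in inhibited and 33.6 CPM in untreated embryos, and eed 236 CPM in inhibited and 276 CPM in untreated embryos. phf19, a Polycomb-like partner of PRC2 in mammals, had 40.4, 43.1 and 19.6 CPM by stage and fell 2.20-fold at stage 10.5 against stage 9 (1.81 to 2.70).

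The summed transcripts of the histone demethylases dipped at stage 9. The 6 genes came to 462.4 CPM under inhibition and to 1582.3, 385.0 and 619.0 CPM at stages 8, 9 and 10.5, and most of the sum was kdm5c, an eraser of lysine 4 methylation, with 1310, 197 and 449 CPM by stage. kdm5c fell 6.65-fold at stage 9 against stage 8 (6.26 to 7.06) in all 8 regions, and at stage 10.5 it was 2.91-fold below stage 8 (2.79 to 3.03). Only 63.7% of its tags lay on its own strand, and on those the log2 ratios were -2.05 and -1.34. kdm4a, which acts on lysines 9 and 36 in mammals, had 53.1, 15.6 and 43.6 CPM, and kdm2a, a lysine 36 eraser, had 44.0, 6.01 and 31.5 CPM. Both fell at stage 9 against stage 8 and rose at stage 10.5 against stage 9 under each scaling. The label of kdm2a joins 2 start sites on scaffolds 379 and 800, and both parts were lowest at stage 9 (16.7, 4.5 and 26.9 CPM on scaffold 379, and 27.3, 1.5 and 4.61 CPM on scaffold 800). These stage 9 values rest on 30 and 10 tags. On its own strand kdm2a had a log2 ratio of -1.58 for stage 9 over stage 8, against -2.68 for all tags. For stage 10.5 over stage 8 the sign differed, with 0.62 on its own strand and -0.47 for all tags.

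The other 3 demethylases had no 2-fold dip at stage 9. kdm6a, an eraser of lysine 27 methylation, had 42.0, 43.4 and 25.7 CPM by stage, and kdm4c had 9.05, 7.96 and 11 CPM. kdm2b, which in mammals brings a Polycomb complex to CpG islands, had 126, 115 and 58.2 CPM by stage. With inhibition kdm2b had 45.1 CPM, against 115 CPM in untreated embryos, 2.56-fold lower (2.19 to 2.99), while kdm2a had 20.6 CPM in inhibited and 6.01 CPM in untreated embryos, 3.43-fold higher (2.35 to 5.10).

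A dip at stage 9 was about as frequent among the chromatin genes as among all genes. Of 65 genes compared over the 3 stages, 31 (47.7%) were lowest at stage 9, against 47.2% of all 4852 genes. A dip of at least 2-fold on both sides was found for 10 (15.4%: kdm2a, kdm4a, kdm5c, phf10, phf12, prmt6, sirt6, smarca5, smarcd1 and suz12), against 13.4% of all genes. Under each of the 4 scalings 5 of these kept both calls, kdm2a, kdm4a, phf10, phf12 and suz12. The reverse, a 2-fold peak at stage 9, was found for smarcb1 alone (1.54%), against 4.25% of all genes. The comparisons on either side of stage 9 share the stage 9 library, and so does the inhibition comparison.

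Stage 9 against stage 8 gave 3 genes that rose and 18 that fell of 63 compared, against 7.35% and 29.0% of all genes, with a median log2 ratio of -0.55 (all genes -0.45). This step depended most on scaling, and TMM moved the median of all genes by 0.52. TMM gave 9 rises and 9 falls among 63 genes compared, against 17.4% and 14.6% of all genes. The 3 rises (brd7, prmt1 and smarcb1) and 9 of the falls (cbx8, kdm2a, kdm4a, kdm5c, phf10, phf12, phf16, smarcd1 and suz12) were called under each scaling. phf12, a partner of the Sin3 deacetylase complex in mammals, had 114 CPM at stage 8, 7.81 CPM at stage 9 and 41.5 CPM at stage 10.5, and at stage 9 was 14.6-fold below stage 8 (11 to 19.8), but 41.3% of its tags lay on its strand. phf16, named jade3 in current annotation and a subunit of an acetyltransferase complex, had 93.3, 9.76 and 20.2 CPM by stage with 27.1% on its strand, and at stage 9 was 9.56-fold below stage 8 (7.36 to 12.6). On the gene's own strand these falls were smaller, with log2 ratios of -2.96 for phf12 and -1.35 for phf16. For all tags the log2 ratios were -3.7 and -3.13.

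Stage 10.5 against stage 9 gave 15 rises and 9 falls of 62 compared, against 29.0% and 17.1% of all genes, with a median log2 ratio of 0.27 (all genes 0.30). TMM scaling moved the median of all genes by -0.29 and gave 11 rises and 11 falls of 62 (all genes 22.2% each). The median of ratios turned the median of the chromatin genes to -0.03. Counting only the largest region of each label gave 23 rises, a minimum of 50 CPM gave 4 falls, and a pseudocount of 5 CPM and intervals wholly beyond 2-fold gave 5 falls each. For these alternatives no share of all genes is at hand. The largest rise was sirt6, a nuclear deacetylase tied to DNA repair and telomeres in mammals, with 16.7 CPM at stage 8, 7.81 CPM at stage 9 and 73.2 CPM at stage 10.5. It was 9.38-fold higher at stage 10.5 than at stage 9 (7.06 to 12.7), in all 3 regions. hdac8, a class I deacetylase, had 37.2, 36.3 and 166 CPM by stage and was 4.56-fold higher at stage 10.5 than at stage 9 (3.97 to 5.25), with its 2 regions in opposite directions.

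The other deacetylases compared over the span stayed within 2-fold, apart from sirt3.2. hdac1, a catalytic subunit of the NuRD and Sin3 complexes, had 696 CPM under inhibition and 446, 512 and 521 CPM at stages 8, 9 and 10.5, while its relative hdac2 had 235 CPM under inhibition and 327, 223 and 172 CPM by stage. sirt3.2, of the mitochondrial sirtuin 3 type, had 66.8, 30.3 and 14.1 CPM and at stage 10.5 was 4.74-fold below stage 8 (3.82 to 5.93). hdac3, the deacetylase of the NCoR corepressor, was the only one of the 7 deacetylases compared that rose under inhibition (all genes 20.7%), with 16.3 CPM in inhibited and 6.01 CPM in untreated embryos, on 76 and 40 tags. The label sirt4 spans 66 regions on 5 scaffolds, and 4.7% of its tags lay on the scaffold of its start site, where it had 25.6 CPM under inhibition and 50.5, 29.4 and 29.8 CPM by stage. Its full value (787, 484 and 938 CPM by stage) therefore cannot be read as that gene's transcript. sirt1 had at most 18 tags in any library, all on the opposite strand.

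Among bromodomain genes, brd7, a subunit of the PBAF form of SWI/SNF in mammals, had 177, 460 and 576 CPM at stages 8, 9 and 10.5 and was 3.25-fold higher at stage 10.5 than at stage 8 (3.03 to 3.50), in all 5 regions. brd1, a scaffold of acetyltransferase complexes, had 147, 64.1 and 43.3 CPM and fell 3.39-fold over the same span (2.98 to 3.86). brd2, a BET reader that binds acetylated histones at active genes, stayed within 2-fold in all 4 comparisons, with 140, 167 and 237 CPM by stage. None of the 5 bromodomain genes changed 2-fold under inhibition, where 20.7% of all genes were higher and 16.6% lower.

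No lysine methyltransferase gene changed 2-fold at stage 10.5 against stage 8 (0 of 7, against 14.6% of all genes higher and 24.6% lower). setd8, which places the single methyl group on lysine 20 of histone H4 and is named kmt5a in current annotation, had 807 CPM under inhibition and 966, 612 and 1050 CPM by stage. ehmt1 (98.3, 77.3 and 118 CPM by stage) and suv39h2 (92.7, 84.1 and 118 CPM), writers of lysine 9 methylation, kept within 2-fold in every comparison. Under inhibition 2 of 5 compared rose, against 20.7% of all genes: setdb2 had 49.4 CPM in inhibited and 18.9 CPM in untreated embryos, and setd1b, a lysine 4 methyltransferase, had 19.8 CPM in inhibited and 7.51 CPM in untreated embryos.

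prmt1, the main arginine methyltransferase of vertebrate cells, had 833, 1930 and 1960 CPM at stages 8, 9 and 10.5. At stage 9 it was 2.32-fold above stage 8 (2.24 to 2.40), and it had 738 CPM in inhibited embryos, against 1930 CPM in untreated ones, 2.61-fold lower (2.52 to 2.72). Its regions did not agree, since under inhibition 2 were higher and 2 lower, although on its own strand the ratio was larger (log2 -1.60, against -1.39 for all tags). prmt7 went the other way, with 229 CPM in inhibited and 78.8 CPM in untreated embryos, 2.91-fold higher (2.62 to 3.24) in all 4 regions, with 57.8% of its tags on its strand. prmt3, which acts on ribosomal proteins in other species, had 119, 171 and 83.3 CPM by stage and was 2.05-fold lower at stage 10.5 than at stage 9 (1.86 to 2.26).

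Of the 8 SMARC genes, 1 rose, 1 fell and 6 stayed within 2-fold at stage 10.5 against stage 8 (all genes 14.6% higher and 24.6% lower). Those that changed, in opposite directions, encode subunits of the SWI/SNF remodeller. smarce1, its HMG box subunit (BAF57), had 273, 421 and 1440 CPM at stages 8, 9 and 10.5, 5.27-fold higher at stage 10.5 than at stage 8 (4.98 to 5.58), the largest rise among the 65 genes compared over the span. smarca4, the ATPase Brg1 of the same complex, had 592, 297 and 198 CPM and fell 2.99-fold over that span (2.81 to 3.18), in all 6 regions. smarcb1, a core subunit, had 378, 855 and 400 CPM, and was 2.26-fold higher at stage 9 than at stage 8 (2.15 to 2.38) and 2.14-fold lower at stage 10.5 than at stage 9 (2.05 to 2.23), although 3 of its 5 regions went up at the second step. The alternative subunits smarcd1 and smarcd2 had 110, 23.7 and 58.0 CPM and 16.1, 20.7 and 27.4 CPM. A label that joins smarcd2 with its neighbour psmc5 held more, 251, 75.2 and 411 CPM by stage, so the course of smarcd2 is not settled by its own label. smarca5, the ATPase of ISWI remodellers, had 269, 95.1 and 254 CPM by stage.

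Under inhibition smarce1 had 1090 CPM, against 421 CPM in untreated stage 9 embryos, 2.60-fold higher (2.48 to 2.72). smarcd1 had 80.1 CPM in inhibited and 23.7 CPM in untreated embryos, 3.38-fold higher (2.80 to 4.09), and smarcd2 had 6.01 CPM in inhibited and 20.7 CPM in untreated embryos, 3.45-fold lower (2.28 to 5.38) on 28 and 138 tags. The joint label of smarcd2 and psmc5 held 115 CPM in inhibited and 75.2 CPM in untreated embryos, and tags of the 2 genes there cannot be told apart. Of the CHD remodellers, chd4, the ATPase of NuRD, had 292, 108 and 129 CPM by stage and chd8 had 218, 104 and 79.3 CPM, both lower at stage 10.5 than at stage 8 (2.26-fold, 2.09 to 2.45, and 2.75-fold, 2.49 to 3.03), the call of chd4 not under each scaling. The label chd4 joins start sites on scaffolds 877 and 827, with 204, 104 and 78.5 CPM and 87.5, 3.60 and 50.6 CPM. A label that joins chd4 with ttyh2 held 61.2 CPM under inhibition and 50.7, 38.6 and 83.9 CPM by stage. Its tags cannot be assigned to either gene, so the fall of chd4 is that of its own label only. No region labelled chd9 lay on the scaffold of that gene's start site, so its values are not described as its transcript, and the same holds for prmt10.

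Among the PHD finger and ING proteins, ing2, which brings the Sin3 deacetylase complex to lysine 4 methylation, had 1850 CPM under inhibition and 1410, 2110 and 420 CPM at stages 8, 9 and 10.5. It was 5.02-fold lower at stage 10.5 than at stage 9 (4.84 to 5.22), in both regions. ing3, of the NuA4 acetyltransferase complex, had 30.8, 29.4 and 13.8 CPM by stage, and 12.5 CPM in inhibited against 29.4 CPM in untreated embryos, 2.36-fold lower (1.75 to 3.22). By all tags phf12 was the largest rise under inhibition, with 49.6 CPM in inhibited and 7.81 CPM in untreated embryos, 6.35-fold higher (4.69 to 8.76). On its own strand its log2 ratio was 1.76, against 2.52 for all tags, and lay below that of prmt7 (2.0). ing1 had 14.4 CPM in inhibited and 3.45 CPM in untreated embryos (67 and 23 tags), and 0 tags at stage 8, with all its tags on the opposite strand. phf5a had 448, 701 and 881 CPM by stage, within 2-fold at every step.

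The H2A variants differed in course. h2afz (H2A.Z, named h2az1 in current annotation), a variant found at promoters, had 548, 805 and 1860 CPM at stages 8, 9 and 10.5 and was 3.39-fold higher at stage 10.5 than at stage 8 (3.26 to 3.54), in 4 of 5 regions. h2afx, the variant that is phosphorylated at DNA breaks, had 387, 203 and 223 CPM. h2afy2, a macroH2A, had 55.1, 34.5 and 25.3 CPM and was 2.18-fold lower at stage 10.5 than at stage 8 (1.81 to 2.63), a call not made under each scaling. h2afv, the second H2A.Z gene, had 6.03, 5.41 and 1.12 CPM on 30, 36 and 9 tags. A label that joins h2afv with polm held more, 18.5 CPM under inhibition and 44.2, 19.8 and 20.9 CPM by stage. Its tags cannot be assigned to either gene, so the level of h2afv is not settled by its own label. Under inhibition h2afz had 1500 CPM, against 805 CPM in untreated embryos, h2afx 102 CPM against 203 CPM, h2afy2 68.7 CPM against 34.5 CPM and h2afv 10.1 CPM against 5.41 CPM, and none of the 4 ratios reached 2-fold on the log2(CPM + 1) scale. h2afx came closest, at -0.99, and was called lower under the other 3 scalings.

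In all, inhibition against untreated stage 9 gave 13 rises and 6 falls of 64 compared, against 20.7% and 16.6% of all genes, and the median log2 ratio was 0.37 (all genes 0.22). TMM scaling gave 12 rises and 8 falls of 66 compared, against 17.2% and 18.6% of all genes. The median of ratios gave 11 and 9 of 66, against 15.5% and 20.5%. Under each of the 4 scalings, 10 rose (cbx3, hdac3, kdm2a, phf12, prmt7, setd1b, setdb2, smarcd1, smarce1 and suz12) and 6 fell (among them cbx8, ing3, kdm2b, prmt1 and smarcd2). The inhibited library carries another alignment date than stages 8 and 9, and no source says if library batches follow it, so such a batch and treatment cannot be told apart.

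Of 109 listed chromatin genes outside the name rule, 44 had a label. At stage 10.5 against stage 8, 6 rose and 15 fell of 41 compared, against 14.6% and 24.6% of all genes, and under inhibition 10 rose and 4 fell of 39, against 20.7% and 16.6%. cenpa, the centromeric H3 variant, had 1470 CPM under inhibition and 83.0, 242 and 815 CPM at stages 8, 9 and 10.5. The Polycomb genes pcgf2 and rybp had 519, 289 and 101 CPM and 151, 72.2 and 30.5 CPM by stage, both lower at stage 10.5 than at stage 8. Among other Polycomb genes, pcgf3 also fell over that span (16.9, 16.7 and 4.86 CPM by stage). ring1 (24.7, 23.6 and 29.3 CPM) and phc2 (21.9, 16.1 and 27.9 CPM) stayed within 2-fold and were slightly higher at stage 10.5 than at stage 8. The histone chaperones nasp (1420, 2140 and 381 CPM) and npm2 (1430, 1100 and 350 CPM), and the oocyte linker histone h1foo (4100, 4570 and 1540 CPM), also fell, whereas h3f3b, a gene of histone H3.3, had 1770, 1080 and 4400 CPM. Among other chaperones and histone-binding proteins, asf1b (155, 166 and 60.6 CPM) and rbbp4 (305, 126 and 87.0 CPM) fell as well. nap1l1 (347, 289 and 443 CPM), rbbp7 (280, 96.9 and 151 CPM) and supt16h (45.0, 39.5 and 24.3 CPM) stayed within 2-fold. Under inhibition h1foo had 13400 CPM, 2.94-fold above untreated stage 9. The genes named here were chosen from the list after their values were seen.

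Promoter marks are given as peaks that cover the transcription start site (TSS), on the xenTro2 assembly. TSS positions were solved from the peak positions and signed distances of the deposited annotation, for 68 of the 70 genes and for 4814 of all labels of 1 gene. phf3 and phf19 had none. The H3K4me3 lists hold 2010, 6839 and 14549 peaks at stages 8, 9 and 10.5, and the H3K27ac lists 8078, 11314 and 23275, so counts at different stages also differ with list length and are set beside those of all genes. H3K4me3 covered 13 of 68 TSSs at stage 8 (19.1%, 10.6 to 30.5%), 48 at stage 9 (70.6%, 58.3 to 81.0%) and 60 at stage 10.5 (88.2%, 78.1 to 94.8%), against 9.08%, 52.9% and 82.8% of all genes. H3K27ac was called more often at stage 8, over 41 (60.3%, 47.7 to 72.0%), 48 (70.6%, 58.3 to 81.0%) and 55 (80.9%, 69.5 to 89.4%) TSSs by stage, against 33.3%, 43.9% and 69.0% of all genes. The peaks of the stage 9 H3K27ac list are named with the prefix of stage 8, and the list was taken for the sample its record gives. H3K4me1 covered 36 (52.9%), 60 (88.2%) and 52 (76.5%), against 43.1%, 80.5% and 79.5%. H3K27me3, the product of PRC2, covered 0 of 68 TSSs at every stage (upper exact bound 5.28%), in lists of only 75, 81 and 179 peaks that covered 0.0%, 0.0% and 0.0623% of all TSSs.

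**Figure D4:**
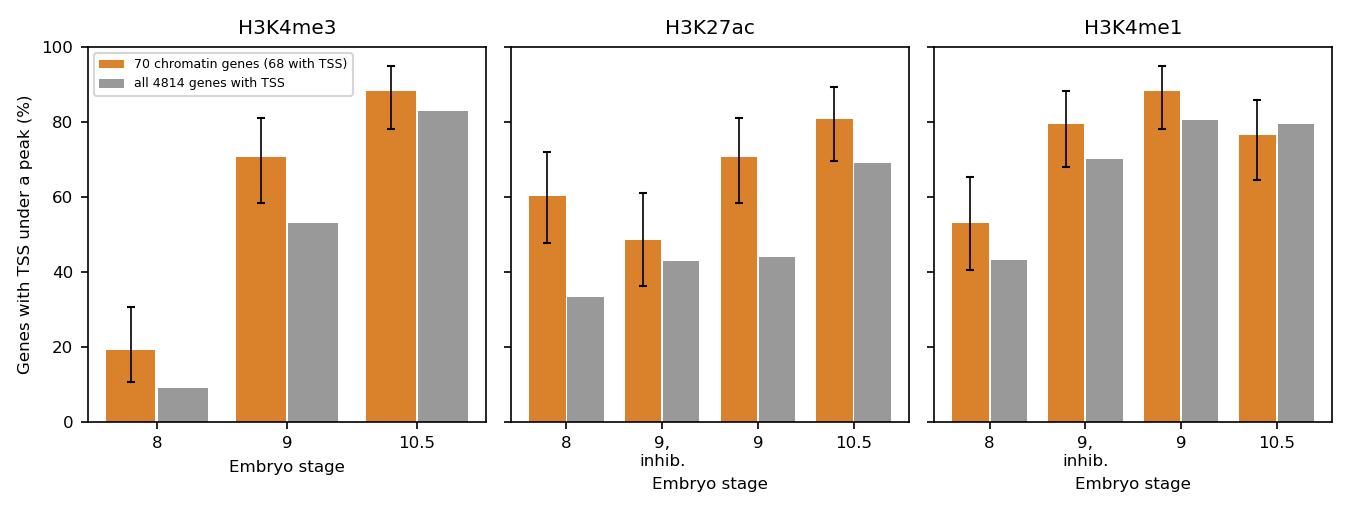
Share of genes with a TSS under a peak of H3K4me3, H3K27ac or H3K4me1 by stage, for the 68 chromatin genes with a TSS (orange, with 95% exact binomial intervals) and all 4814 genes with a TSS (grey), with the Nodal-inhibited lists left of untreated stage 9. H3K27ac covered 60.3% of the chromatin genes at stage 8, against 33.3% of all genes. The intervals treat genes as independent draws and do not cover variation between libraries.

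Counting instead peaks whose centre lay within 1 kb of the TSS gave 14, 45 and 40 of 70 genes for H3K4me3 at stages 8, 9 and 10.5 (all genes 9.92%, 46.4% and 61.9%), so by that rule the count was lower at stage 10.5 than at stage 9. The peaks over these TSSs were wider at stage 10.5, with medians of 1.71, 1.36 and 2.94 kb at stages 8, 9 and 10.5. For H3K27ac the rule gave 37, 40 and 41 (24.6%, 31.7% and 47.1%), for H3K4me1 33, 45 and 42 (37.4%, 60.1% and 55.2%) and for H3K27me3 0 at each stage (0.0%, 0.0% and 0.128%). Under inhibition it gave 28 genes for H3K27ac (all genes 32.3%) and 42 for H3K4me1 (50.3%). The chromatin genes also had higher levels than all genes in every library, as given above, and among all genes those with a TSS under H3K27ac at stage 8 had a median of 79.2 CPM, against 50.1 CPM for those without. The part of level in these shares was not tested.

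By gene, H3K4me3 lay over the TSS at all 3 stages for 12 genes (17.6%, all genes 8.77%), among them brd1, brd2, cbx3, cbx5, ing2, ing5, kdm4c, phf12, phf13, smarca5 and smarcd1. It lay over the TSS at stages 9 and 10.5 and not at stage 8 for 36 (52.9%, all genes 44.2%), among them the 3 PRC2 genes, cbx6, cbx7, cbx8, hdac1, hdac2, hdac3, hdac8, prmt1, smarca4, smarce1 and h2afz. At 3 of the 36, eed, h2afz and kdm2a, a stage 8 peak was centred within 1 kb of a TSS without covering it. Another 11 (16.2%, all genes 29.7%) had it over the TSS at stage 10.5 only, such as brd7 and kdm2b. Among these 11, chd4 had a stage 9 peak centred within 1 kb of a TSS, and its stage 10.5 peak covered the start on scaffold 877. 8 never had it (11.8%, all genes 17.1%): chd8, ehmt1, phf10, prmt7, setdb2, sirt3.2, smarcad1 and suv39h2. Transcripts of these 8 were nonetheless present, with median levels of 95.5, 78.1 and 98.7 CPM at stages 8, 9 and 10.5, and whether their annotated start is the one used was not tested.

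**Figure D5:**
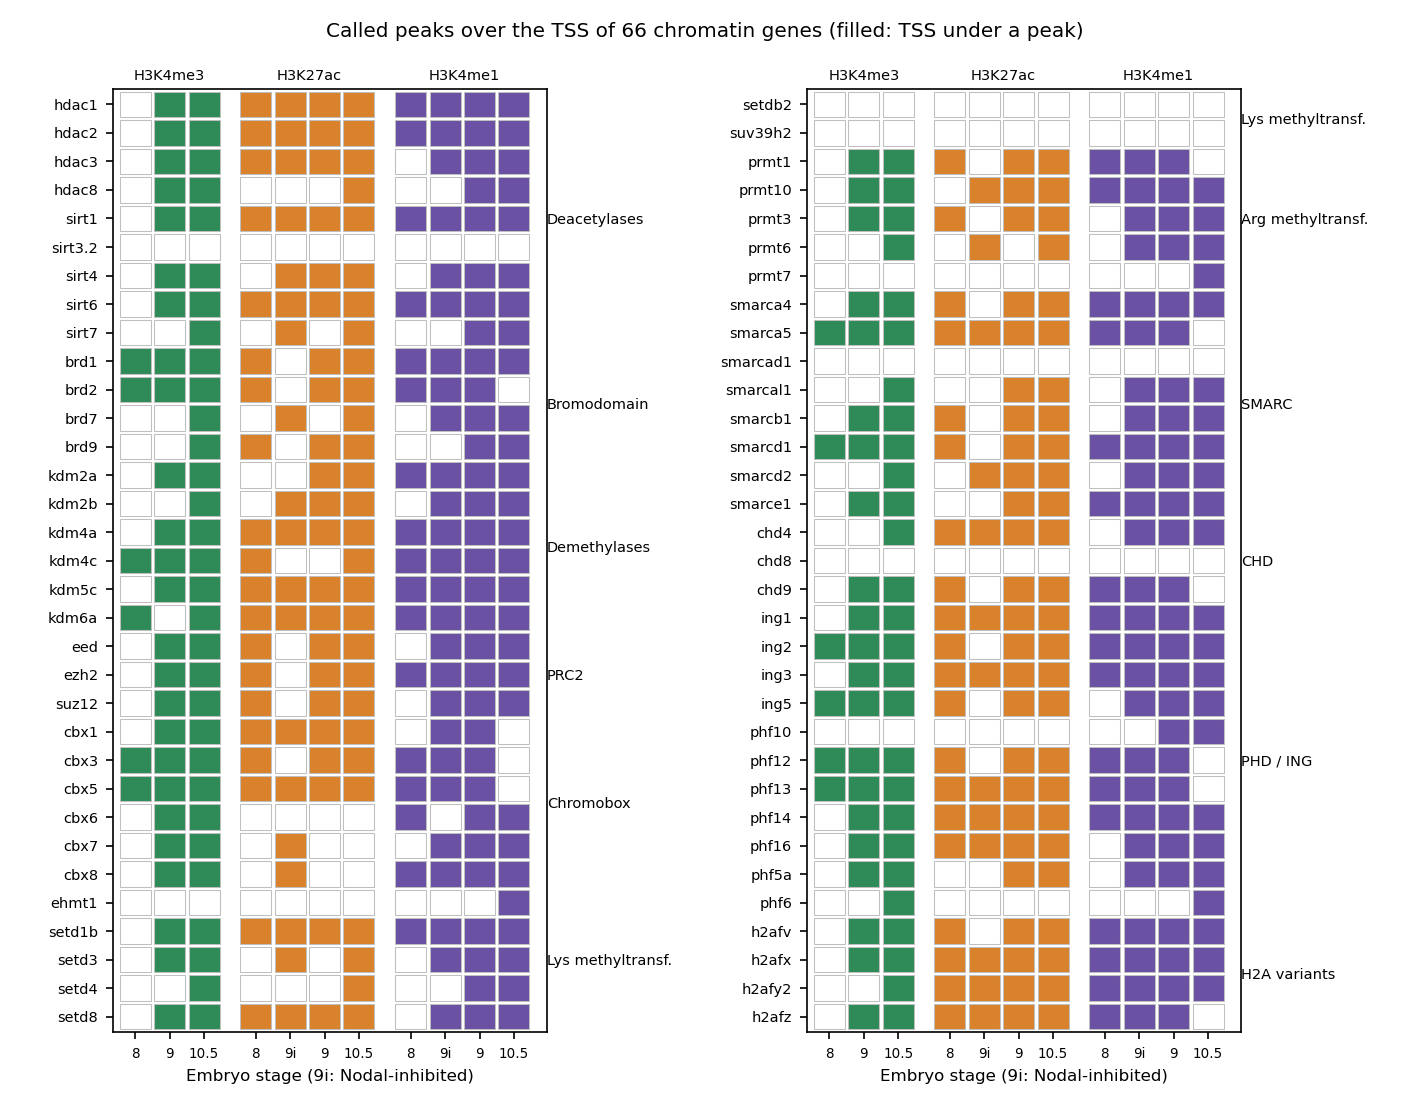
Grid of 66 chromatin genes with a TSS (rows, by family) against mark and stage (columns), filled where a called peak covers the TSS, with Nodal-inhibited stage 9 (9i) left of untreated stage 9. cbx6, cbx7 and cbx8 have H3K4me3 and H3K4me1 at untreated stages 9 and 10.5 without H3K27ac, and cbx7 and cbx8 have H3K27ac under inhibition.

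H3K27ac covered the TSS at all 3 stages for 40 genes (58.8%, all genes 26.9%), including eed, ezh2, suz12, kdm5c, prmt1, smarca4, ing2 and all 4 H2A variants. It covered none of the TSSs of cbx6, cbx7 and cbx8 at any untreated stage, although H3K4me3 and H3K4me1 lay over all 3 at stages 9 and 10.5. Few genes had that combination: 7 of 68 at stage 9 (10.3%, all genes 18.8%), also hdac8, kdm4c and setd3 among them, and 5 at stage 10.5 (7.35%, all genes 14.7%), also phf6 among them. At stage 9 the TSS of cbx8, on scaffold 148 at 252400, lay under H3K4me3 from 252011 to 252871. cbx6 and cbx7 both start on scaffold 69, at 924573 and 898009.

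In inhibited embryos a called H3K27ac peak covered the TSSs of cbx8 (251612 to 253026) and cbx7 (897400 to 900194), while their transcripts went in different directions. cbx8 transcripts were lower and cbx7 transcripts higher than in untreated stage 9 embryos, as given above. Over the 68 genes, inhibited embryos had H3K27ac over 33 TSSs (48.5%, 36.2 to 61.0%), against 48 (70.6%) in untreated stage 9 embryos, where all genes had 42.9% and 43.9%. It was present only under inhibition at 7 (10.3%, all genes 19.4%), among them brd7, cbx7, cbx8, prmt6, setd3 and sirt7. It was present only in untreated embryos at 22 (32.4%, all genes 20.4%), among them brd2, cbx3, eed, ezh2, suz12, ing2, prmt1, smarca4, smarcb1 and smarce1. Of these 22, 7 had an inhibited peak that ended within 1 kb of the TSS (cbx3, ezh2, h2afv, ing2, ing5, phf12 and prmt1) and 10 had none within 10 kb. These distances were not measured for the 984 genes of all kinds in the same class. Of the same 22, transcripts of 6 rose under inhibition (cbx3, kdm2a, phf12, smarcd1, smarce1 and suz12), that of prmt1 fell and 15 stayed within 2-fold, against 20.7% higher and 16.6% lower among all genes. The H3K27ac lists hold 16105 peaks under inhibition and 11314 in untreated stage 9 embryos.

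H3K4me1 under inhibition covered 54 of the 68 TSSs (79.4%, all genes 70.1%), all of them among the 60 covered in untreated embryos (all genes 80.5%). The 6 without it under inhibition were brd9, cbx6, hdac8, phf10, setd4 and sirt7 (8.82%, all genes 11.7%). Untreated histone libraries were made with multiplexing adapters and aligned with BWA, and inhibited ones without such adapters and with Bowtie, so these technical differences and treatment cannot be told apart in any inhibited peak list.

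A smaller group lost called H3K4me1 at the TSS itself. 10 genes, among them brd2, cbx3, cbx5, chd9, h2afz, phf12, phf13, prmt1 and smarca5, had it at stages 8 and 9 and not at stage 10.5 (14.7%, all genes 2.99%). At stage 10.5 the H3K4me1 peaks stood beside the start: the nearest edge was 121 to 1009 bp away, and at 9 of the 10 genes peaks flanked the TSS on both sides within 2 kb. Flanking peaks were not counted for genes of all kinds with the same loss, so whether this is particular to the chromatin genes was not tested. With cbx1, these were the 11 genes that had H3K4me3 and H3K27ac over the TSS at that stage without H3K4me1 (16.2%, all genes 5.67%). The 10 genes had median levels of 242.2, 149.0 and 245.2 CPM at stages 8, 9 and 10.5. The 26 genes with H3K4me1 over the TSS at all 3 stages had 58.8, 34.1 and 43.5 CPM. Among all genes only a wider grouping was compared, by H3K4me1 over the TSS at stage 10.5 alone. Its stage 10.5 medians were 52.1 CPM for the 986 genes without the mark and 47.6 CPM for those with it. Of those 986, 606 had none of the 3 marks over the TSS. Levels of the 144 genes of all kinds with the same loss were not compared, so whether the difference is particular to the chromatin genes was not tested.

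Smad2/3 peaks within 50 kb, with the gene as nearest, were few. They were found for h2afz at stage 8 (1.43%, all genes 1.72%), for chd9, ehmt1 and smarcal1 at stage 9 (4.29%, all genes 3.2%) and for cbx5 and prmt1 at stage 10.5 (2.86%, all genes 5.66%). The file headers name the peak sets of stages 9 and 10.5 as stricter and not that of stage 8, so counts are not compared between stages. The h2afz site lay in an intron 3.06 kb downstream of the TSS (authors' score 16). The prmt1 site, on scaffold 587 from 340166 to 340730, lay at -8.09 kb from the TSS in intergenic sequence with the authors' score 32.9, rank 174 of 1024. It overlapped H3K27ac at all 3 stages and under inhibition, within a domain that in untreated stage 9 embryos ran from 335824 to 350601 and reached over the TSS at 348538. The cbx5 site, on scaffold 161 from 1984890 to 1985485, lay in an intron 4.03 kb downstream of the TSS (score 25) and overlapped H3K27ac in the same 4 lists. cbx5 had 80.8 CPM in inhibited and 130 CPM in untreated stage 9 embryos, within 2-fold. None of the stage 9 Smad2/3 peaks near chd9, ehmt1 and smarcal1 overlapped a peak of any mark. smarcal1, an annealing helicase, had 131 CPM in inhibited and 87.5 CPM in untreated embryos, and ehmt1 had 68.1 CPM in inhibited and 77.3 CPM in untreated embryos, both within 2-fold.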

How the data were processed

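The deposited files were used as they are, with no reads aligned. The transcript table holds the authors' raw tag counts per called region (46039 regions, 20406 without a gene). Regions were called without strand, per the file headers, at bandwidth 50, region threshold 25, kurtosis threshold 50 and hit threshold 90. The strand of a region was instead read from the order of its start and end coordinates, and that of a gene from its solved TSS. Over all labels of 1 gene with a readable strand, the median share of tags on the gene's strand was 95.3%. The deposited kurtosis score was left aside. A further 4 per-sample columns match no listed sample and entered no step. Counts of regions with the same label were summed. Regions without a gene held 30.54% of tags under inhibition and 32.64%, 29.08% and 29.53% at stages 8, 9 and 10.5, and stayed out of the totals (all tags 6703399, 7383222, 9390029 and 11395054 in that order). 1 tag is worth 0.2148, 0.2011, 0.1502 and 0.1245 CPM in these libraries. How tags of near-identical genes were split is not stated.

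For log2 ratios 1 CPM was added to both levels, and genes under 10 CPM in both libraries were left out. Folds are ratios of CPM with conditional Clopper-Pearson intervals, shares have Clopper-Pearson intervals, and levels have exact Poisson intervals. A region entered counts of agreeing regions at 20 tags in a pair. With 1 library per group, no test, no SD and no p-value was made. The ratio and call steps were run on simulated Poisson counts of known folds. Those counts held no variation between libraries, so they cannot show how the calls would replicate. Scalings tried were all tags, TMM (edgeR 4.0.16, R 4.3.3) and the median of ratios. Other steps used Python 3.11.15, pandas 2.3.3 and scipy 1.17.1.

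The 17 peak lists hold deposited positions, and per the file headers were annotated on xenTro2. Per the submitters' processing notes, BWA aligned the untreated histone libraries, Bowtie the Smad2/3, input and inhibited ones, MACS2 called the peaks and HOMER annotated them, all without stated versions. Each peak has a deposited score on an unstated scale, used only for ranks within a list. The other deposited columns used, TSS distance and gene name, come from the authors' annotation, whose distance is from the peak's centre. A TSS was solved from at least 3 peaks with distances agreeing within 3 bp (7934 of 8245 promoter names), so it exists only for genes near peaks. The 3 input libraries were not used here. In the stage 9 H3K27ac list the peak names begin with the prefix of stage 8, and the list was used as its sample record gives it. Current gene names are from RefSeq annotation of UCB_Xtro_10.0, used for names only.

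The genes, their families, the list of 109 other chromatin genes and the thresholds were chosen with earlier results of these data known. Genes were named by rule: the 5 largest rises and falls per comparison, the gene with the highest CPM in each family, all PRC2 genes and H2A variants, and genes with a Smad2/3 site. Others named were chosen after their values were seen. Alternatives are under the closing section. Results on 2 of the 70 genes are not reported here singly, and both stay in the counts and medians.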

Additional observations from a re-analysis of the deposited data

Results flagged for a closer look

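Tags of 6 genes of the same families that have no label of their own stand under labels joined with a neighbour, which the comparisons above did not use. At stage 10.5 the label joining kat5, an acetyltransferase gene, with commd2 held 1199 tags, and the label joining setd6 with slc39a3 held 924. The label of prmt2 with dip2a held 50 tags, that of phf15 with gatad1 held 33, that of setd7 with ypel2 held 22, and that of h2afy with gatad1 held 4. Which gene of a pair the tags came from was not tested.

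Of the peak annotation, 13 family genes without a transcript label of their own had an H3K4me3 peak within 1 kb of the TSS at stage 10.5: brd3, h2afy, kat5, kat7, kat8, kdm4b, kdm8, phf15, phf17, prmt2, setd6, setd7 and setdb1. They include the 3 acetyltransferase genes of the kat family, of which kat7 and kat8 had H3K4me3, H3K27ac and H3K4me1 promoter peaks at all 3 stages.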

How the results depend on the processing

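No paired analysis was possible because each group has 1 library, so its replicate number pairs nothing, and no library could be left out. Of 204 values recomputed under alternatives, 169 kept their direction within a wide tolerance, 33 moved further and 2 changed sign. The cause was not tested. Within that tolerance, H3K4me3 genes at stage 10.5 went from 40 (peak centre within 1 kb) to 60 (peak over the TSS). Rises under inhibition went from 13 to 19 with the largest region of each label. Transcript counts under alternatives other than the scalings have no share of all genes beside them, here and below. The alternatives of own-strand regions, of leaving out sirt4 and chd9, of genes on 1 scaffold with over 75% of tags on their strand, and of peaks covering the TSS were chosen after seeing the data.

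For inhibited over untreated stage 9, a minimum of 50 CPM gave 6 rises, 3 falls and a median of 0.20, and 1 scaffold with over 75% own strand gave 8 rises and a median of 0.19. The median was 0.23 with TMM, 0.16 with the median of ratios and 0.62 with the largest region of each label. The all-gene median moved by -0.12 and -0.20 under these 2 scalings, and the members' split became 12 to 8 and 11 to 9. All genes then had 17.2% and 15.5% higher and 18.6% and 20.5% lower.

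For stage 9 over stage 8, TMM and the median of ratios each gave 9 rises and 9 falls, with medians of -0.04 and -0.02. They moved the all-gene median by 0.52 and 0.55. All genes then had 17.4% and 17.9% higher and 14.6% and 14.2% lower. The largest region gave a median of -0.39.

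For stage 10.5 over stage 9, the largest region gave 23 rises and a median of 0.48, 50 CPM gave 4 falls, and a pseudocount of 5 CPM and intervals wholly beyond 2-fold gave 5 falls each. The median was 0.0 with TMM, -0.03 with the median of ratios and 0.17 on the own strand, and these scalings moved the all-gene median by -0.29 and -0.31.

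For stage 10.5 over stage 8, the largest region gave 15 rises and a median of 0.10. The median was -0.01 with TMM, -0.02 with the median of ratios and -0.07 with 1 scaffold and over 75% own strand. Both scalings moved the all-gene median by 0.24 and gave 8 rises and 12 falls. All genes then had 19.0% and 18.8% higher and 18.3% and 18.4% lower.

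For peak centres within 0.5 kb of the TSS, H3K4me3 counts were 9 at stage 8 and 26 at stage 10.5, and H3K4me1 counts 27 under inhibition and 24 at stage 10.5. The upper 50% of scores left 15 inhibited and 25 untreated stage 9 genes with H3K27ac. Within 10 kb, 1 gene had a Smad2/3 peak at stage 9.

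Depth limits low genes most: the floor of 3 tags is 0.6443 CPM in the inhibited library and 0.3736 CPM at stage 10.5.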
